A study of Mus musculus with 12 samples.

Results

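The cytosolic ribosomal protein genes encode the protein components of the ribosome, the particle that translates mRNA in the cytoplasm. Its small subunit, with the Rps proteins, reads the mRNA, and its large subunit, with the Rpl proteins, joins the amino acids. Most of the proteins are needed in equal amounts, and the mRNAs of the family are among the most abundant in the cell. Their translation is controlled through a run of pyrimidines at the 5′ end of the mRNA, the TOP motif, which links ribosome production to growth signals through mTOR. In blood formation the family is known from Diamond-Blackfan anaemia, in which the loss of 1 copy of a ribosomal protein gene impairs red cell production.

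Members were all protein-coding genes of the bulk RNA-sequencing table whose symbol is that of an Rpl or Rps protein (a number with or without a, x or l, or Rpsa, Rplp0, Rplp1 and Rplp2), without pseudogenes and S6 kinases, and averaging 10 or more counts across the 12 libraries. This gave 76 of 21754 genes, 45 of the large and 31 of the small subunit, on 19 chromosomes. The lowest mean count among them was 188 (Rpl23a) and the highest 16901 (Rps14), with a median of 3923, so that the minimum of 10 removed only genes far below the others. Just under it lay the paralogues Rpl3l, Rpl39l and Rpl10l with mean counts of 6.5, 2.42 and 1.5. Rps4l (mean count 109) and Rpl6l (mean count 2195) carry matching symbols but are annotated as processed pseudogenes and were left out. Rpl13 was not analysed here. All 76 members passed the filter on low counts of the test.

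The libraries came from untreated bone marrow of 3 individual C57BL/6 mice, an inbred laboratory strain. The 4 populations were Siglec-H-negative pre-cDC, the precursors of conventional dendritic cells; lo-lo cells, which are Siglec-H-positive with low CCR9 and low B220; lo-hi cells, with low CCR9 and high B220; and pDC, the plasmacytoid dendritic cells with high CCR9 and high B220. The study used adult animals of both sexes, aged some months, and gives no age for the 3 animals sorted here. Total counts ranged from 1801463 to 5995971 per library.

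The population of each library was taken from the study's source data for a transcription factor heat map and not from the deposited labels, because these contradict each other in 8 of the 12 wells. All 378 pairs of 28 transcription factors had the same order within each well as in 1 named sample of those source data, while at least 7 pairs were ordered otherwise in any other sample. Surface marker genes that the match did not use mostly followed it between the end populations. By edgeR, Siglech, Bst2, Ccr9, Ly6d, Klra17 and Ptprc were higher in pDC than in pre-cDC at an adjusted p under 0.01. Csf1r, Cx3cr1, Cd40 and Itgax were lower. Of the other genes chosen as pre-cDC markers, Flt3 was not called (log2 fold change -0.18) and Clec10a was higher in pDC (1.99). The study itself names Clec10a among the genes with high expression in differentiated pDC, so it was not a fitting pre-cDC marker. Siglech, which encodes the sorted surface protein, was at 203 to 415 CPM relative to the library's total count, without further scaling (raw CPM), in pre-cDC, 781 to 997 in lo-lo, 2001 to 2231 in lo-hi and 2484 to 2973 in pDC, without overlap between the populations. The source data also number the libraries of each population as replicates 1, 2 and 3, but the sources used here do not tie a number to an animal across populations. Xist, the RNA of the inactive X chromosome, had 601 to 1959 counts in the libraries numbered 1 and 2 and 87 to 119 in those numbered 3, and the Y-linked Ddx3y had 1 to 10 and 58 to 145 counts. Number 3 was thus set apart in every population, while numbers 1 and 2 could not be told apart by these genes. With the deposited labels as groups, edgeR called 0 of the 15293 genes tested, and 0 members had an unadjusted p under 0.05. All directions below therefore rest on the match.

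RNA of other bone marrow cells was present although lineage-positive cells had been depleted before the sort. The summed level of 6 neutrophil genes was 4213 to 11550 raw CPM in pre-cDC, 5119 to 18290 in lo-lo, 9670 to 20380 in lo-hi and 3130 to 6271 in pDC, mostly from S100a8, S100a9, Ngp and Camp. That of 6 erythroid genes, mostly haemoglobin, was 2921 to 10110, 3830 to 4859, 5420 to 6769 and 3950 to 8007 raw CPM in the same order. That of 4 basophil and mast cell genes reached 861 and 665 raw CPM in pre-cDC of replicates 1 and 2 and was 47.3 to 200.2 in the other libraries. The 6 B cell genes summed to 62.7 to 146.5, the 4 megakaryocyte genes to 9.05 to 128 and the 6 T and NK cell genes to 10.6 to 56.0 raw CPM over all libraries, with Cd3e at most 1.22 raw CPM and at 0 in 8 libraries. The part of these cells in the results below was not tested.

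The members together held 8.61% to 12.3% of the counts of a library, and the populations overlapped. Their share of all counts was 11.01%, 8.87% and 12.3% in pre-cDC of replicates 1, 2 and 3, and 9.49%, 8.61% and 10.7% in lo-lo. It was 10.2%, 10.1% and 10.8% in lo-hi, and 10.98%, 9.97% and 10.1% in pDC. The means were 10.7% ± 1.74 (SD, n = 3), 9.58% ± 1.03, 10.4% ± 0.382 and 10.3% ± 0.556, so the spread between the libraries was largest in pre-cDC and smallest in lo-hi. Between libraries of the same number the share was lower in lo-lo than in pre-cDC, by the least in replicate 2. Mitochondrially encoded genes held 4.44%, 12.3% and 3.002% of the counts in pre-cDC of replicates 1, 2 and 3, so the library with the lowest ribosomal share of its population had the highest mitochondrial share. They held 5.33% to 11.5% in lo-lo, 6.72% to 10.7% in lo-hi and 5.43% to 9.99% in pDC. Counted without them, the members held 11.5%, 10.1% and 12.7% in pre-cDC, 10.2%, 9.72% and 11.3% in lo-lo, 10.9%, 11.4% and 11.7% in lo-hi, and 11.6%, 11% and 11.2% in pDC, and the populations still overlapped. A further 3.26% to 4.65% of the counts lay in 211 rows named as pseudogenes of the members, which are annotated as separate loci. Reads of a member could have been assigned to such a copy in part. In bulk libraries, fewer cells of a type and less RNA per cell cannot be told apart.

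**Figure D1:**
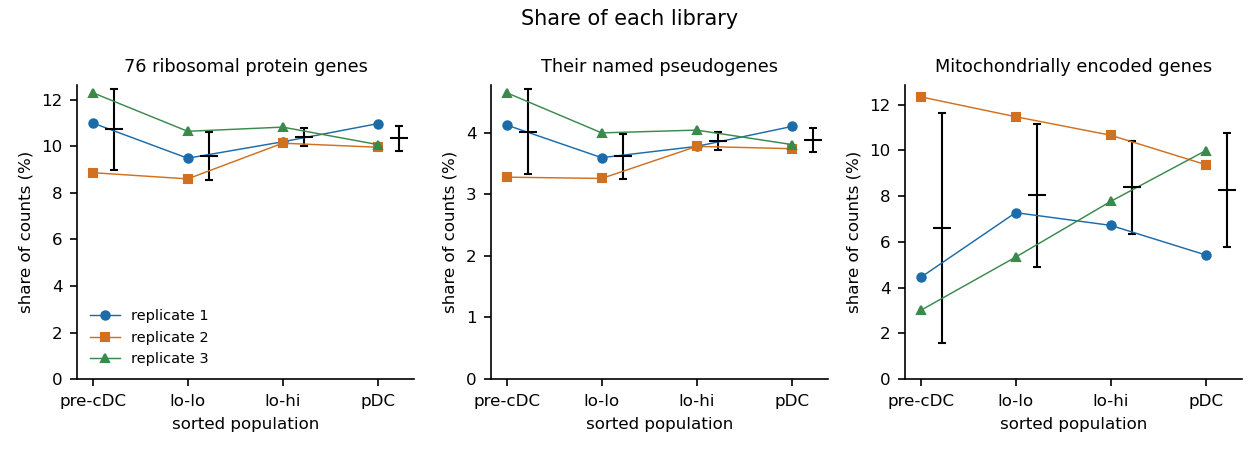
Share of all counts (%, y axis) in each library of the 4 sorted populations (x axis) held by the 76 ribosomal protein genes, by 211 rows named as their pseudogenes and by mitochondrially encoded genes, with points joined by replicate number and the mean ± SD (n = 3) beside them. The ribosomal share lies between 8.61% and 12.3% with overlapping populations, and the mitochondrial share is highest in replicate 2 in all populations but pDC.

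Across the 4 populations, 5 of the 76 members changed at an adjusted p under 0.01 (6.58%), against 19.9% of all genes tested. These were Rpl31 (adjusted p = 1.63e-08), Rpl36 (0.00128), Rps27 (0.0015), Rps27l (0.00194) and Rps19 (0.00824). At the other end, Rpl27, Rps24 and Rpl6 had the largest values, with adjusted p of 0.973, 0.794 and 0.762. Rpl27, a large subunit protein, was at 400 to 566 CPM (here and below after TMM scaling of the library sizes) in pre-cDC and at 400 to 493 in lo-lo, 435 to 477 in lo-hi and 400 to 490.5 in pDC. The family is among the deeply counted genes of the table: of the 2342 other genes that were counted no less than Rpl23a on average, 31.2% changed across the populations. Leaving out pre-cDC of replicate 2 raised the members called to 11, and leaving out pre-cDC of replicate 1 (3 called), lo-lo of replicate 1 or pDC of replicate 2 (2 called each) lowered them.

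From pre-cDC to lo-lo, nearly all members shifted down a little and none did so enough to be called. The fitted log2 fold change was below 0 for 75 of 76 members, with a median of -0.25 against 0.04 over all genes tested, and the exception was Rpl31. The quasi-likelihood test of edgeR called 0 members in either direction, where it called 1.61% of all genes as higher and 1.55% as lower in lo-lo. DESeq2 also called 0. At an unadjusted p under 0.05 there were 24 members, 23 of them lower in lo-lo. Rpl32 had the smallest adjusted p, 0.0386, with a log2 fold change of -0.51. The 95% intervals of all 76 members lay within a 2-fold change in either direction. Between libraries of the same replicate number, 70 members were lower in lo-lo for all 3 numbers, against 19.3% of all genes, and 22 members had all 3 lo-lo libraries below all 3 pre-cDC libraries, against 8.66% of all genes. Only Rpl31 had them all above, against 12.4% of all genes. The members of a library share its composition and are not independent of each other, so these counts describe 3 pairs of libraries. The median stayed between -0.28 and -0.17 with the other ways of scaling the libraries. Single pre-cDC libraries weighed on it: without replicate 2 the median was -0.36 and 3 members were called, all lower, and without replicate 3 it was -0.14, with 8 members above 0 and 0 called.

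From lo-lo to lo-hi the shift turned, and 1 member rose. A log2 fold change above 0 was found for 67 of the 76, with a median of 0.13 against 0.01 over all genes. Rpl31 was the only member called (1 higher, 0 lower), while 2.33% of all genes were called as higher and 2.83% as lower. At an unadjusted p under 0.05 there were 12 members, all higher in lo-hi. For all 3 replicate numbers 44 members were higher in lo-hi, against 22.4% of all genes, and in 26 the libraries did not overlap, against 13.6%. In 0 members all 3 lo-hi libraries lay below all 3 lo-lo libraries, against 13.9% of all genes. The median was 0.05 when libraries were scaled by total counts alone, and 0.08 with 59 members above 0 without lo-lo of replicate 2. Fitting only the 6 libraries of lo-lo and lo-hi called 3 members, all higher.

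From lo-hi to pDC the members hardly moved. The median log2 fold change was -0.01 against 0.03 over all genes, with 34 members above 0 and 42 below, and it lay between -0.066 and 0.019 with single libraries left out. edgeR called 0 members in either direction, as did DESeq2, and 1 member had an unadjusted p under 0.05, which was lower in pDC. Of all genes, 0.118% were called as higher and 0.844% as lower in pDC. The changes ranged from -0.29 (Rps27l) to 0.23 (Rps27), and all 95% intervals lay within a 2-fold change.

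**Figure D2:**
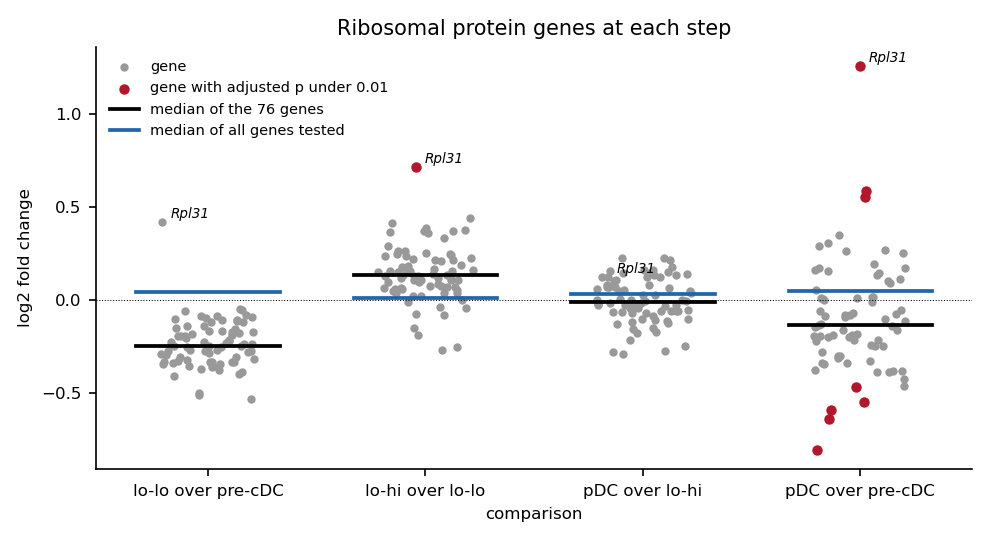
Log2 fold change (y axis) of each of the 76 genes in the 4 comparisons (x axis), with genes at an adjusted p under 0.01 in red, the median of the 76 in black and that of all genes tested in blue. The members lie below 0 from pre-cDC to lo-lo apart from Rpl31, above 0 for 67 of 76 from lo-lo to lo-hi, and around 0 from lo-hi to pDC.

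Between the end populations, 8 of the 76 members differed: 3 were higher and 5 lower in pDC than in pre-cDC. This is 10.5% of the members in either direction, where 3324 of the 15293 genes tested were called in either direction. By direction, 11.4% of all genes were called as higher and 10.4% as lower. Of the 2342 other genes of at least the level of Rpl23a, 33.3% were called in either direction. The median log2 fold change of the members was -0.13 against 0.05 over all genes, with 25 above 0 and 51 below. This median depended on single libraries: it was -0.031, with 33 above 0, without pre-cDC of replicate 3 and -0.065 without pDC of replicate 3, but -0.25 without pre-cDC of replicate 2 and -0.25 without pDC of replicate 1. In 9 members all 3 pDC libraries lay above all 3 pre-cDC libraries (21.5% of all genes), and in 13 all lay below (17.9% of all genes). The 95% interval lay within a 2-fold change for 74 members, and the exceptions were Rpl31 and Rps27l. The median standard error of the log2 fold change was 0.14, so that a change of the median size of the members, 0.19, was not detectable gene by gene at this depth and number of mice.

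**Figure D3:**
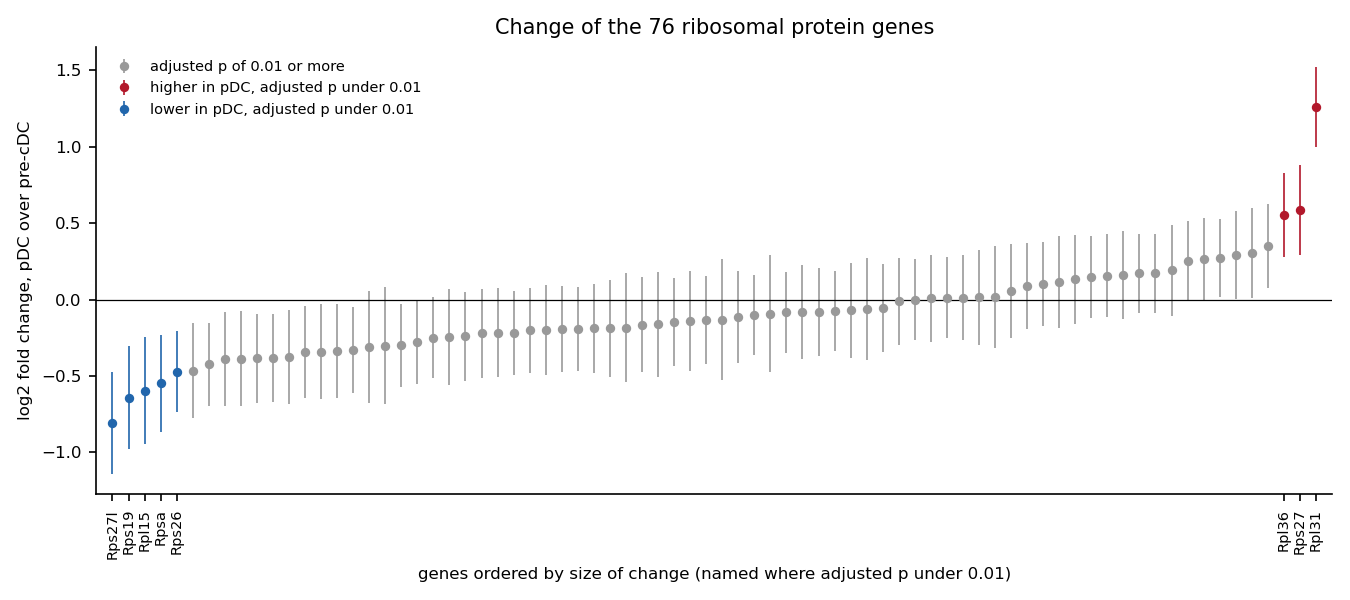
Log2 fold change of pDC over pre-cDC (y axis) with its 95% interval for the 76 ribosomal protein genes (x axis), ordered by size, with the genes that passed the test named on the axis. The 3 genes in red (Rpl36, Rps27 and Rpl31) were higher and the 5 in blue (Rps27l, Rps19, Rpl15, Rpsa and Rps26) lower in pDC at an adjusted p under 0.01.

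Rpl31 stood apart from the family. It encodes a large subunit protein at the exit of the tunnel through which the new peptide leaves the ribosome (chr1:39367842-39371911, plus strand, GRCm38, as are all positions here). Its level was 1481, 1451 and 1662 CPM in pre-cDC of replicates 1, 2 and 3, and 2050, 1942 and 2160 in lo-lo. It was 3314, 3366 and 3428 CPM in lo-hi, and 3626, 3457 and 3923 in pDC. No library of a population overlapped with those of another, and for each replicate number the level was higher in each population than in the one before. The log2 fold change of pDC over pre-cDC was 1.26 ± 0.13 (SE, n = 3 per population), a fold of 2.40 (adjusted p = 1.41e-08). The larger step was from lo-lo to lo-hi, with a log2 fold change of 0.72 ± 0.12 (adjusted p = 2.99e-04). That from pre-cDC to lo-lo was 0.42 ± 0.12 (adjusted p = 0.0427), which did not pass 0.01, and that from lo-hi to pDC 0.12 ± 0.12 (adjusted p = 0.819). The call between the end populations held in all 22 alternatives with the matched populations, with a log2 fold change of 1.19 to 1.28, as did that from lo-lo to lo-hi.

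The copies of Rpl31 in the table moved with it. Its 21 rows named as pseudogenes held 64.6% of the counts of gene and copies together. They summed to 2703, 2393 and 3086 raw CPM in pre-cDC, 4000, 3483 and 4264 in lo-lo, 5882, 5722 and 6042 in lo-hi, and 6790, 6191 and 6939 in pDC. The populations did not overlap here either. The gene Tbc1d8, a predicted Rab GTPase-activating protein on the other strand, overlaps Rpl31 in the annotation and was also higher in pDC, at 32.2, 54.0 and 41.9 CPM in pre-cDC and 188, 206 and 199 in pDC (log2 fold change 2.22 ± 0.17, adjusted p = 1.98e-10). Its level is small beside that of Rpl31. Whether the counting used the strand is not given in the sources used here, so reads of both genes in their shared stretch cannot be told apart.

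Rps27 and its paralogue Rps27l moved in opposite directions. Both encode the same small subunit protein in forms that differ by few residues, and RPS27L is known as a target of p53. Rps27 (chr3:90212522-90213651, minus strand) was at 2221, 1941 and 2801 CPM in pre-cDC, 2114, 1959 and 2488 in lo-lo, 3057, 3048 and 2807 in lo-hi, and 3784, 3378 and 3282 in pDC. All pDC libraries lay above all others, and pre-cDC and lo-lo overlapped. Its log2 fold change of pDC over pre-cDC was 0.59 ± 0.14, a fold of 1.5 (adjusted p = 0.00248). Rps27l (chr9:66946086-66949516, plus strand) was at 312, 245 and 361 CPM in pre-cDC, 270, 223 and 280 in lo-lo, 227, 203 and 212 in lo-hi, and 204, 168 and 151 in pDC. It was lower in each population than in the one before for each replicate number. The log2 fold change was -0.81 ± 0.16, a fold of 0.571 (adjusted p = 3.32e-04), while each single step, of -0.25, -0.27 and -0.29, did not pass the test.

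Within a library, Rps27l made up 12.3%, 11.2% and 11.4% of the counts of the pair in pre-cDC of replicates 1, 2 and 3, and 11.3%, 10.2% and 10.1% in lo-lo. It made up 6.91%, 6.24% and 7.01% in lo-hi, and 5.12%, 4.74% and 4.41% in pDC. This ratio needs no scaling of the libraries. The means were 11.7% ± 0.579 (SD, n = 3), 10.6% ± 0.671, 6.72% ± 0.42 and 4.76% ± 0.357. The difference between pDC and pre-cDC had p = 0.1 in a two-sided exact permutation test, the smallest value that 3 libraries against 3 allow, for a ratio chosen after its values were seen. The retrogene Rps27rt, whose row holds a near-identical copy of Rps27, moved like Rps27. It went from 2542, 2312 and 3106 CPM in pre-cDC to 4240, 3884 and 3735 in pDC (log2 fold change 0.58, adjusted p = 0.0019). Reads of Rps27 and Rps27rt may be split between their rows. The percentages above leave out the counts of Rps27rt and would be lower with them.

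**Figure D4:**
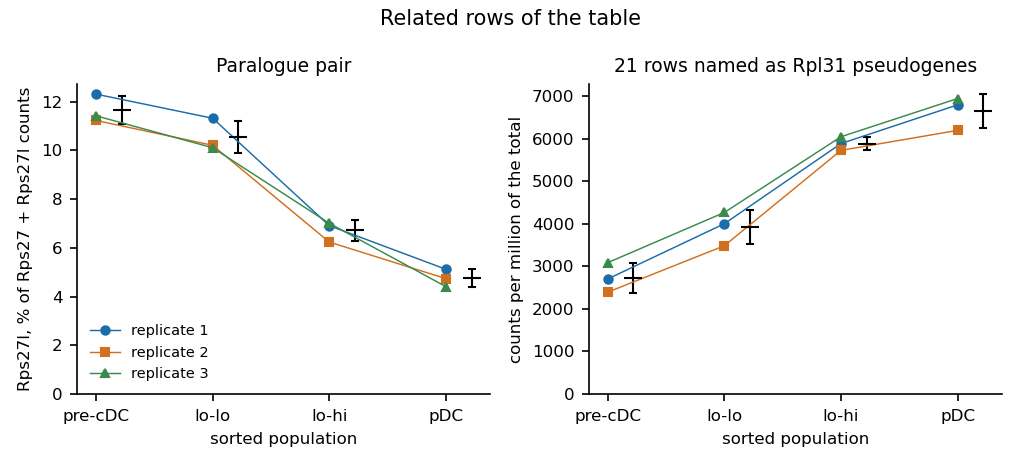
Left, counts of Rps27l as a percentage of Rps27 and Rps27l together (y axis) per library and population (x axis), and right, summed raw CPM of 21 rows named as Rpl31 pseudogenes, with points joined by replicate number and the mean ± SD (n = 3) beside them. The share of Rps27l falls from 11.7% in pre-cDC to 4.76% in pDC on average, and the Rpl31 copies do not overlap between populations.

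Rpl36, a large subunit protein, was the third member that was higher in pDC (chr17:56613416-56614243, plus strand). It was at 1057, 956 and 1229 CPM in pre-cDC, 1044, 940 and 1069 in lo-lo, 1295, 1396 and 1376 in lo-hi, and 1566, 1479 and 1712 in pDC. The pDC libraries lay above all others and the lo-hi libraries above those of lo-lo and pre-cDC. The log2 fold change of pDC over pre-cDC was 0.55 ± 0.13 (adjusted p = 0.00223). Its step from lo-lo to lo-hi was 0.41 (adjusted p = 0.0545) and that of Rps27 0.44 (adjusted p = 0.0551).

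The other 4 members that were lower in pDC had their highest mean in pre-cDC. Rps19, the gene most often mutated in Diamond-Blackfan anaemia and a protein of the small subunit's head (chr7:24884371-24889806, plus strand), was at 3375, 2585 and 4604 CPM in pre-cDC, 2339, 2124 and 2825 in lo-lo, 2422, 2170 and 2480 in lo-hi, and 2439, 2198 and 2139 in pDC. The pDC libraries lay below all pre-cDC libraries and among those of lo-lo and lo-hi. Its log2 fold change of pDC over pre-cDC was -0.64 ± 0.16 (adjusted p = 0.00373), and that of lo-lo over pre-cDC was -0.54 (adjusted p = 0.0537). The high value of replicate 3 weighed on it: without pre-cDC of replicate 3 the change was -0.44 (adjusted p = 0.0277).

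Rps26, a small subunit protein and also a Diamond-Blackfan anaemia gene (chr10:128624534-128626747, minus strand), was at 2104, 1887 and 2221 CPM in pre-cDC, 1644, 1644 and 1868 in lo-lo, 1749, 1769 and 1917 in lo-hi, and 1454, 1558 and 1470 in pDC. All pDC libraries were below all others. The log2 fold change of pDC over pre-cDC was -0.47 ± 0.13 (adjusted p = 0.00561). Rpsa, a small subunit protein that was also described as a laminin receptor (chr9:120127689-120132369, plus strand), was at 933, 1006 and 886 CPM in pre-cDC, 719, 839 and 774 in lo-lo, 640, 805 and 893 in lo-hi, and 524, 655 and 754 in pDC. Here pDC and pre-cDC did not overlap, and the log2 fold change was -0.55 ± 0.15 (adjusted p = 0.00719). Rpl15, a large subunit protein (chr14:18267823-18271391, minus strand), was at 193, 174 and 243 CPM in pre-cDC, 154, 138 and 167 in lo-lo, 132, 113 and 141 in lo-hi, and 167, 113 and 123 in pDC. Its log2 fold change of pDC over pre-cDC was -0.59 ± 0.17 (adjusted p = 0.00834). Rows named as its pseudogenes held 88.1% of the counts of gene and copies, and with these added the adjusted p was 0.0212. For Rpsa, 78.8% of the counts lay in such rows, for Rps19 56.4% and for Rpl36 48.1%, and their calls held with the copies added.

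**Figure D5:**
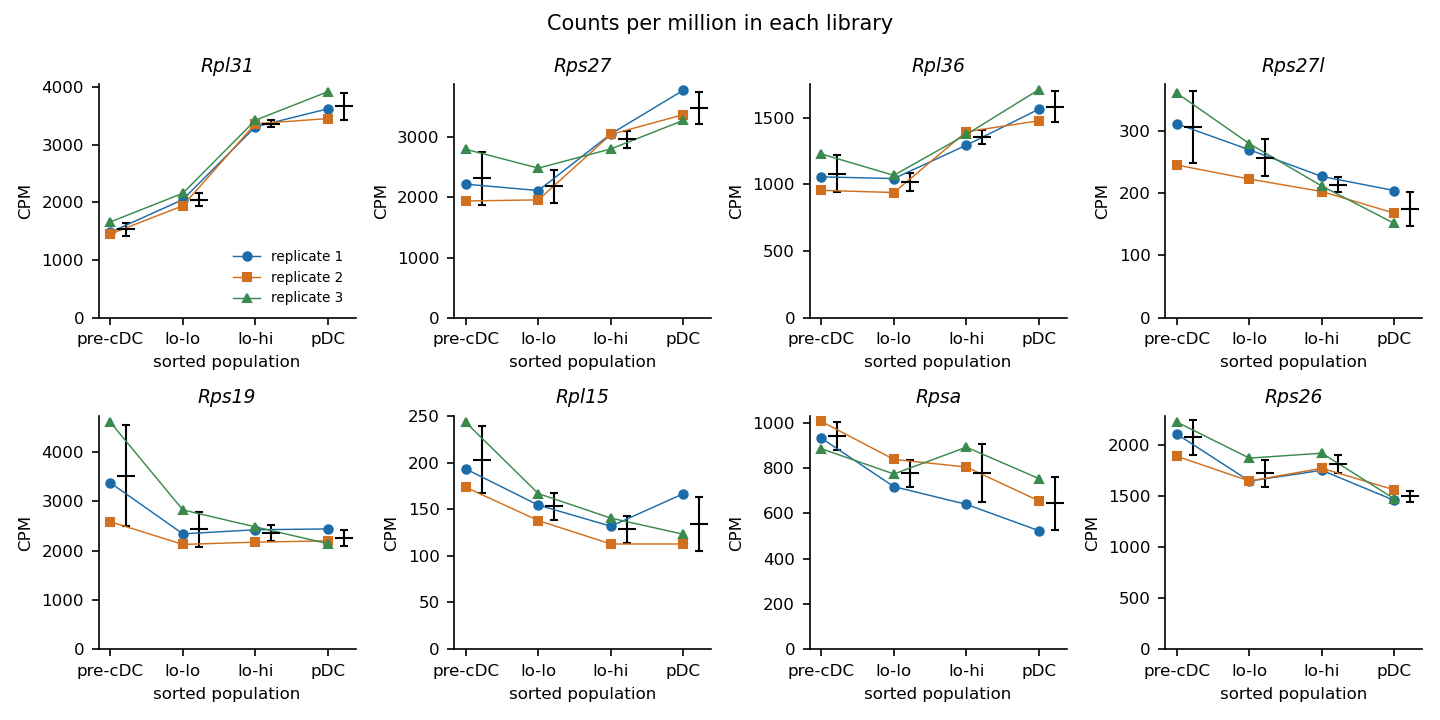
CPM (y axis, from 0) in each library of the 4 sorted populations (x axis) for the 8 genes that differed between pDC and pre-cDC, with points joined by replicate number and the mean ± SD (n = 3) beside them. Rpl31, Rps27 and Rpl36 are highest and Rps27l lowest in pDC, and Rps19 and Rpl15 have their highest values in pre-cDC of replicate 3.

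Of the 8 calls between the end populations, those of Rpl31 and Rps27l were kept in all 22 alternatives. Rpl36 kept its call in 18, Rps27 and Rps19 in 17 each, Rpsa and Rps26 in 16 each and Rpl15 in 13, with the direction kept in all. In a fit of only the 6 libraries of pDC and pre-cDC, Rpl31 and Rps27l were the 2 members called. Without pre-cDC of replicate 1 these 2 were also the only ones, and without pDC of replicate 2 or 3 there were 3 and 4. Without pre-cDC of replicate 2, 13 members were called, 12 of them lower in pDC.

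By their place in the ribosome, members of both subunits lay mostly below 0 from pre-cDC to pDC. Of 31 small subunit members, 23 had a change below 0 (median -0.16), 4 were called as lower and 1 as higher. Of 45 large subunit members, 28 had a change below 0 (median -0.08), 1 was called as lower and 2 as higher. Of all genes, 10.4% were called as lower and 11.4% as higher. The difference between the subunits was not tested. The P stalk, which recruits elongation factors to the large subunit, was split: the log2 fold change of pDC over pre-cDC was -0.39 for Rplp0 (adjusted p = 0.0381), -0.28 for Rplp2 (adjusted p = 0.108) and 0.26 for Rplp1 (adjusted p = 0.14), and none passed. Rplp1 was at 2989, 3026 and 3081 CPM in pre-cDC and 3622, 3621 and 3668 in pDC, Rplp0 at 3053, 2475 and 3369 and at 2547, 2223 and 2042. Rpl5 and Rpl11, which enter the large subunit with its smallest rRNA and bind the p53 inhibitor Mdm2 when assembly fails, changed by 0.09 (95% interval -0.19 to 0.37) and 0.13 (-0.16 to 0.42). Rps27a, made as a fusion with ubiquitin, changed by -0.30 (adjusted p = 0.0846).

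Among a list of 9 genes known from Diamond-Blackfan anaemia, Rps19 and Rps26 were lower in pDC and 0 were higher, with a median of -0.33. Of all genes, 10.4% were called as lower and 11.4% as higher, which is also the background for the groups below. The list does not hold every gene reported in this disease, among them Rpl31 and Rps27, which were higher in pDC, and Rpl15, which was lower. Rps7, of the small subunit, had a change of -0.34 (adjusted p = 0.0877). Rps24 was close to 0 at 0.01 (95% interval -0.27 to 0.29). Of a list of 14 small subunit proteins, most of them of its head, 13 had a change below 0. The 2 called were Rps19, of the head, and Rpsa, which is not counted here as a head protein. Of 8 proteins around the tunnel exit, 3 had a change above 0 and Rpl31 was the one called, so its neighbours in the ribosome did not follow it past the test. Of the paralogues below the minimum count, Rpl10l had 0 to 4 counts and Rpl39l 0 to 6, near the detection limit of 3 counts in a library (0.5 to 1.67 raw CPM). Rpl3l had 1 to 2 counts in pre-cDC, under that limit, 4 to 7 in lo-lo, 4 to 10 in lo-hi and 8 to 18 in pDC, where it was at 2.44 to 4.31 raw CPM, and it changed across the populations (adjusted p = 0.00831 by edgeR). The limits cover counting error only.

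Sequences at the transcription start sites of the members were read for the TOP motif, since it is what these mRNAs are known to share. RefSeq promoter sequences (GRCm38.p6) were found for 56 of the 76 members. An unbroken run of at least 6 C or T bases on the transcript's strand, touching the stretch from 5 bases before to 10 after an annotated start, was present in 33 of the 56 members (58.9%) and in 27.6% of 27025 genes, with the longest of a gene's annotated starts counted. The median longest run was 7 bases in members and 4 over all genes. Shown are 30 bases before and 20 from a RefSeq start of the called members other than Rpl36, 5′ to 3′ on the transcript's strand. The longest run of C or T touching that stretch is in capitals, also where it is under 6 bases.
Rpl31: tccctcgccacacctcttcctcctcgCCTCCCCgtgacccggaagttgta
Rps27: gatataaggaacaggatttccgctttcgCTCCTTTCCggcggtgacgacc
Rps27l: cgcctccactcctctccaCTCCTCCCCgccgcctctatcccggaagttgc
Rps19: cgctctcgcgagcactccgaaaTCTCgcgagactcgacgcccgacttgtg
Rpsa: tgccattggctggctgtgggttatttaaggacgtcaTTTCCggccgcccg
Rpl15: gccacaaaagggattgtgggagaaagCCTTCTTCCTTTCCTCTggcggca
Rps26: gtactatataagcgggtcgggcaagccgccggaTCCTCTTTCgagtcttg
They lie at chr1:39367821-39367870 (plus), chr3:90213629-90213678 (minus), chr9:66946056-66946105 (plus), chr7:24884562-24884611 (plus), chr9:120127736-120127785 (plus), chr14:18270967-18271016 (minus) and chr10:128626487-128626536 (minus). The starts used lie 9, 3 and 0 bases from the gene's start in GENCODE vM21 for Rpl31, Rps27 and Rps27l. For Rps19, Rpsa, Rpl15 and Rps26 they lie 221, 77, 405 and 241 bases from it, and the run lengths hold for the starts used only. The run was 7 bases long in Rpl31 and 9 in Rps27, which were higher in pDC, and 9, 4, 5, 17 and 9 bases long in Rps27l, Rps19, Rpsa, Rpl15 and Rps26, which were lower. Among these, the paralogues Rps27 and Rps27l had runs of equal length, but that of Rps27 spans the start and that of Rps27l ends before it. The run of Rps19 also ends before the start used, and those of Rpsa and Rps26 begin after it. A run in capitals therefore need not lie at the 5′ end of the mRNA.

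Among the genes of the machinery around the ribosome, most of those called between pDC and pre-cDC were lower in pDC. Of all 15293 genes tested, 3324 were called in either direction. Among 35 initiation and elongation factors, 6 were lower and 1 was higher in pDC than in pre-cDC, with a median log2 fold change of -0.19. Eif4a1, the RNA helicase of the initiation complex, fell by 0.81 (adjusted p = 1.91e-04), and its relative Eif4a2 was 0.80 higher (adjusted p = 9.93e-04). Among 47 genes of ribosome assembly and RNA polymerase I, 6 were lower and 1 was higher, with a median of -0.24. Nop16, a nucleolar protein, fell by 1.34 (adjusted p = 2.87e-06), and Gnl3, nucleostemin, was 0.76 higher (adjusted p = 0.00439). Among 74 proteins of the mitochondrial ribosome, 5 were lower and 1 was higher, with a median of -0.20. Mrpl28 fell by 1.06 (adjusted p = 1.20e-05) and Mrps34 was 1.14 higher (adjusted p = 2.53e-05). The share called as lower was 17.1% of the factors, 12.8% of the assembly genes and 6.76% of the mitochondrial ribosome, against 10.4% of all genes. The share called as higher was 2.86%, 2.13% and 1.35% in the same order, against 11.4% of all genes. Of 8 further ribosome parts whose symbols fall outside the family's rule, such as Rack1, the only one called was Rps27rt.

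Of 18 genes of the MYC and mTOR pathways, 4 (22.2%) were lower and 2 (11.1%) higher in pDC than in pre-cDC, against 10.4% and 11.4% of all genes, with a median log2 fold change of 0.06. Myc, which drives ribosome production, was at 14.4, 15.4 and 18.2 CPM in pre-cDC, 4.13, 2.39 and 5.36 in lo-lo, 2.65, 1.55 and 3.86 in lo-hi, and 1.02, 1.58 and 1.30 in pDC. Its log2 fold change of pDC over pre-cDC was -3.64 ± 0.35 (adjusted p = 8.86e-09). Eif4ebp1, an inhibitor of translation under mTOR, fell by 1.72 (adjusted p = 4.25e-07), and Mycl was 0.998 higher (adjusted p = 2.49e-05). All 22 proliferation genes were called as lower in lo-hi than in lo-lo, against 2.83% of all genes. All 22 were also called as lower in pDC than in pre-cDC, against 10.4% of all genes. Their median log2 fold changes were -1.23 and -2.61. The members had a median change of 0.13 from lo-lo to lo-hi and of -0.13 between the end populations. The comparisons share libraries, and the part of cell division in the members' values was not tested.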

How the data were processed

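RNA of sorted bone marrow dendritic cell populations was measured by bulk SCRB-seq, which reads mainly the 3′ ends of poly(A) transcripts. The authors filtered barcodes with zUMIs, mapped reads with STAR 2.5.2b to mm10 and assigned them to Ensembl genes. The deposited table holds unnormalized counts as whole numbers for each gene and well, and rarely counted genes are still in it. Whether these are reads or molecular identifiers is not given in the sources used here.

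Library sizes were scaled by TMM. Of the genes, 15293 averaged 1 count or more and were tested, with 6461 left out. The test was the quasi-likelihood F test (edgeR 4.0.16 under R 4.3.3), robust, with all 12 libraries in 1 fit and Benjamini-Hochberg adjustment at 0.01. DESeq2 1.42.0 was an alternative. The steps were tested on simulated data. The p-values rest on the spread between the 3 libraries of each population, pooled over the populations. The main fit took the libraries as independent and did not pair populations by animal, although the study sorted them from 3 mice.

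The members and lists were chosen with earlier results of these data known. Genes were named by rule: the largest called changes, calls against the majority, the largest and smallest p, and role groups. Positions are those of GENCODE vM21.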

Additional observations from a re-analysis of the deposited data

How the results depend on the processing

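Each count of members called was recomputed with DESeq2's size factors, total counts, TMM without the members, no filter, a mean count of at least 10, DESeq2's tests, the replicate number as a block, thinning to the smallest total, a cutoff of 0.05, the deposited labels, each library left out, only the 6 libraries compared and, chosen after seeing the data, each member summed with its named pseudogenes. The sources used here do not tie a replicate number to an animal across populations. Deviations from the population means correlated at 0.118 on average between libraries of the same number (18 pairs, -0.15 to 0.309) against -0.059 (36 other pairs), and 10 of the 12 libraries correlated best with one of their own number. With the replicate block 6 members were called across the 4 populations and 9 between pDC and pre-cDC, and it moved no count by over 1.5 times. Across the 4 populations, where 5 were called, a cutoff of 0.05 gave 12, total counts 2, a mean count of at least 10 gave 9, DESeq2 9 and the deposited labels 0, and leaving out single libraries gave 2 to 11. For lo-lo over pre-cDC, a cutoff of 0.05 gave 2 and leaving out single libraries 0 to 3. For lo-hi over lo-lo, the deposited labels gave 0 and the 6 libraries alone 3. For pDC over pre-cDC, where 8 were called, a cutoff of 0.05 gave 14, total counts 5, the deposited labels 0 and the 6 libraries alone 2, and leaving out single libraries gave 2 to 13. The count for pDC over lo-hi was 0 in all. The cause of these shifts was not tested.

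The share of counts in members rose by construction to 14.03% in pre-cDC, 12.9% in lo-lo, 14.3% in lo-hi and 14.1% in pDC without the 50 most abundant other genes, to 14.7%, 13.2%, 14.3% and 14.2% with the named pseudogenes, and to 11.3% in lo-hi and 11.3% in pDC without mitochondrially encoded genes. Leaving out single libraries gave 9.94% to 11.7% in pre-cDC and 9.05% to 10.1% in lo-lo.

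Among the named members, the sign of a change near 0 turned for Rps24 with DESeq2's size factors (-0.036), with TMM without the members (-0.025) and without single libraries (-0.064 to 0.052), and without pre-cDC of replicate 2 for Rpl5 and of replicate 3 for Rpl23a and Rpl27. Over all libraries left out singly, Rpl5 ranged from -0.006 to 0.11, Rpl23a from -0.25 to 0.10 and Rpl27 from -0.21 to 0.033. With 3 libraries per population, the smallest member change called in the main fit was a log2 fold change of -0.47 (Rps26, pDC over pre-cDC). Smaller changes could have been missed.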
